A study of Mus musculus with 12 samples.

Results

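The 35 genes described here carry cells through the division cycle, from the decision to leave G1 through DNA replication to mitosis. They were listed for their known parts in replication, mitosis and cycle control. The rule used no measured value, but the list was made with earlier results of these data known. All 35 were found among the 20143 genes of the deposited table. By role they comprise 7 regulators of G1, 8 genes of replication licensing and the replicative helicase, and 4 of the replication fork and nucleotide supply. The other 16 act in G2 and mitosis and are called mitotic genes below: 7 mitotic kinases and cyclins, 3 genes of the spindle checkpoint and the anaphase-promoting complex, and 6 of the spindle and chromosomes.

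RNA was sequenced from whole liver of 12 mice, 1 library per mouse. The 6 wild-type (WT) mice and the 6 mice without Hsd17b13 (KO), numbered 1 to 6 in each group, all received CDAA-HFD over 12 weeks, starting when they were 8 to 10 weeks old, so a liver on a normal diet is not part of the comparison. CDAA-HFD stands for a high-fat diet that lacks choline and supplies defined amino acids, and it makes the mouse liver fatty, inflamed and fibrotic. Hsd17b13 encodes a hepatocyte lipid droplet enzyme. The labels name no strain, sex, litter or time of day of collection, and they do not describe the deletion.

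Most hepatocytes of an adult liver rest outside the cycle and re-enter it after injury. D-type cyclins and then cyclin E release E2F factors, which switch on the genes of replication. MCM proteins loaded by CDC6 become the helicase of the fork, and in G2 a further set of genes, driven through B-MYB and FOXM1, supplies cyclin B, its kinase CDK1 and the spindle machinery. CDKN1A (p21) and CDKN1B (p27) restrain the cyclin-dependent kinases.

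These waves of transcription are known for different promoter elements, and the promoters of the listed genes differed in that way. RefSeq promoters (GRCm38.p6, 250 bases before to 50 after the start) were found for 28 of the 35 genes, 13 of them mitotic, 11 of replication and 4 of G1 control. Ccnd1, Ccnd2, Ccne2, Mcm4, Ccna2, Aurkb and Tpx2 had no entry. Both strands were searched for the cell cycle homology region (CHR), spelled TTTGAA or else TTCGAA, and for the CCAAT box. E2F sites were searched as the string TTCCCGC, the string TTGGCGC, the string TTCGCGC and the string TTGCCGC. Matches may overlap. Shares here are of genes, and a gene with several promoters counted once if any of them matched. A CHR stood in 10 of 13 mitotic promoters (76.9%), 3 of 11 replication promoters (27.3%) and 0 of 4 G1 promoters, against 21.7% of all 27025 genes with a promoter. E2F letters stood in 3 of 13 mitotic (23.1%) and 7 of 11 replication promoters (63.6%), against 10.9% of all. CCAAT was in 12 of 13 mitotic (92.3%) and 9 of 11 replication promoters (81.8%), against 41.1%. A CHR together with CCAAT, the pair typical of late cell cycle genes, was in 10 of 13 mitotic promoters against 8.61% of all. Among the 10507 genes with a promoter that were also tested below, the shares were 16.9% for CHR, 18.2% for E2F and 6.91% for CHR with CCAAT. These matches describe letters and not bound sites.

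The 200 bases upstream of the RefSeq start are given for 4 mitotic and 2 replication genes, chosen because they show the contrast between CHR with CCAAT and E2F letters. Capitals mark every match to a CHR, CCAAT or E2F letter string on either strand, and the strand is that of the gene.
Cdk1, chr10:69352913-69353112, minus strand: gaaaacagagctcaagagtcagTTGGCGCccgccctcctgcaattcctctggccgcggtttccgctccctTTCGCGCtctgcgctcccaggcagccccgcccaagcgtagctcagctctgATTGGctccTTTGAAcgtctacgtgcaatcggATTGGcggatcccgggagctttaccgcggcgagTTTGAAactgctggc
Cdc20, chr4:118437344-118437543, minus strand: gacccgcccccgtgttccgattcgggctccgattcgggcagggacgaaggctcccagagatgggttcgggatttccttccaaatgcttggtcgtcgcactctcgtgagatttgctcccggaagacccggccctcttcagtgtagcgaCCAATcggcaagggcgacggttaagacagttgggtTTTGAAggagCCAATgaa
Top2a, chr11:99024190-99024389, minus strand: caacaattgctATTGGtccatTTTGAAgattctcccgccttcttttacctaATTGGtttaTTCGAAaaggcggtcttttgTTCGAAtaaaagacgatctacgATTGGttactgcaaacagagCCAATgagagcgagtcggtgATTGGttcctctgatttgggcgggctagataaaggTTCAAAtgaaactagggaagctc
Mki67, chr7:135716380-135716579, minus strand: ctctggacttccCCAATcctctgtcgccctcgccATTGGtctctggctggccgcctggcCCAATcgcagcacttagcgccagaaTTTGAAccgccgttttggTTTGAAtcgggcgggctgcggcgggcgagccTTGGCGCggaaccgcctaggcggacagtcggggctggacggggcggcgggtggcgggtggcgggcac
Mcm5, chr8:75109309-75109508, plus strand: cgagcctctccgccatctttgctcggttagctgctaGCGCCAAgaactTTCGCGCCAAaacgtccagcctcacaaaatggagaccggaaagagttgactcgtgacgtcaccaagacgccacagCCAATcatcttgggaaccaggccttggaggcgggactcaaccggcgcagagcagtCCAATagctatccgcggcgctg
Mcm6, chr1:128359706-128359905, minus strand: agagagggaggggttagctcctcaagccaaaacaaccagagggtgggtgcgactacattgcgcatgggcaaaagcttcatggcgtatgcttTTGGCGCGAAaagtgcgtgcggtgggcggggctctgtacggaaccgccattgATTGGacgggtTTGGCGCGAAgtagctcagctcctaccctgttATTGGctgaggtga
Upstream of Top2a lay 4 CHR and 5 CCAAT matches with 0 E2F matches, and upstream of Cdc20 1 CHR and 2 CCAAT matches. Mcm5 and Mcm6 had 3 and 4 E2F matches, several of them overlapping, and 0 CHR matches. Cdk1 held 2 matches of each kind.

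All values are CPM, counts scaled so that every library sums to 1000000, the unit of the deposited table. By the smallest step between values, 1 CPM stood for 46.3 to 77.9 counts per library, and the lowest count of any listed gene in any library was 42. The targeted gene followed the labels: Hsd17b13 was at 315 to 393 CPM in WT and 0.956 to 1.40 in KO. Hepatocyte transcripts dominated, with albumin (Alb) at a mean of 44940 CPM in WT and 44790 in KO. KO mice 1 and 3 stood apart from the other KO mice at 2 genes outside the list. Pebp1, an inhibitor of Raf kinase signalling, was at 195 and 214 CPM there, at 288 to 308 in the other 4 KO mice and at 92.4 to 110.0 in WT. The pseudogene Gm8730 was at 117 and 119 CPM, against 185 to 206 in the other KO mice and 25.6 to 30.9 in WT. At both genes the 2 libraries thus lay between the WT and the other KO mice, while Hsd17b13 was at 1.40 and 0.992 CPM in them. Results are therefore also given without these 2 libraries.

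The cycle genes were present at low to moderate level in every liver. Their mean over 12 mice had a median of 6.99 CPM, and 22 of 35 lay under 10 CPM. Per kilobase of annotated exon, the highest was the G1 cyclin Ccnd1 at 50.5 CPM per kb, followed by the sliding clamp Pcna at 12.0, Cdkn1a at 10.9, Cdkn1b at 7.97 and the anaphase activator Cdc20 at 6.83. Cdc6 was the lowest at 0.180 CPM per kb, and Mki67, the proliferation antigen Ki-67, reached 5.55. Cdc6 alone fell under the minimum mean of 1 CPM for testing, which left 34 genes.

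KO liver was compared with WT by limma on log2(CPM + 0.1). Of 15648 genes tested, 28 passed an adjusted p of 0.05 (0.179%), 13 lower and 15 higher in KO, and 0 of the 34 cycle genes passed. The split of calls depended on scaling: 46.4% of the calls were lower in KO as deposited, 64.8% with median-of-ratios scaling and 57.0% with quantile normalization. Without adjustment, 1756 genes (11.2%) had a p under 0.05, among them 2 of 34 cycle genes, Plk1 and Aurka. Both were lower in KO, a direction in which 1194 of all genes (7.63%) had such a p, so the share among the cycle genes (5.88%) was under the background. The median log2 difference, KO minus WT, was -0.19 over the 34 cycle genes and -0.03 over all genes. It was negative for 29 of 34 cycle genes (85.3%) and for 60.9% of all genes. Quantile normalization turned the sign of 5 genes (Ccne2, Mcm3, Mcm4, Rrm2 and Tyms) and median-of-ratios scaling that of Rrm2. The WT and KO values of 0 cycle genes lay apart without overlap, against 207 of 15648 genes (1.32%). These p-values set the difference between groups against the spread of mice within the groups. The labels give no litter, so litter and genotype cannot be told apart.

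The negative differences lay mainly in the mitotic genes. All 16 had a lower mean in KO, at 68.1% to 86.6% of the WT mean, with log2 differences from -0.58 (Plk1) to -0.24 (Birc5) and a median of -0.39. The 18 tested genes of G1 and replication had a median of -0.05, 13 of them negative, and 0 had an unadjusted p under 0.05. In whole liver, fewer dividing cells and less RNA per cell cannot be told apart. A difference between the sets of genes was not tested, since genes are not replicates.

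**Figure D1:**
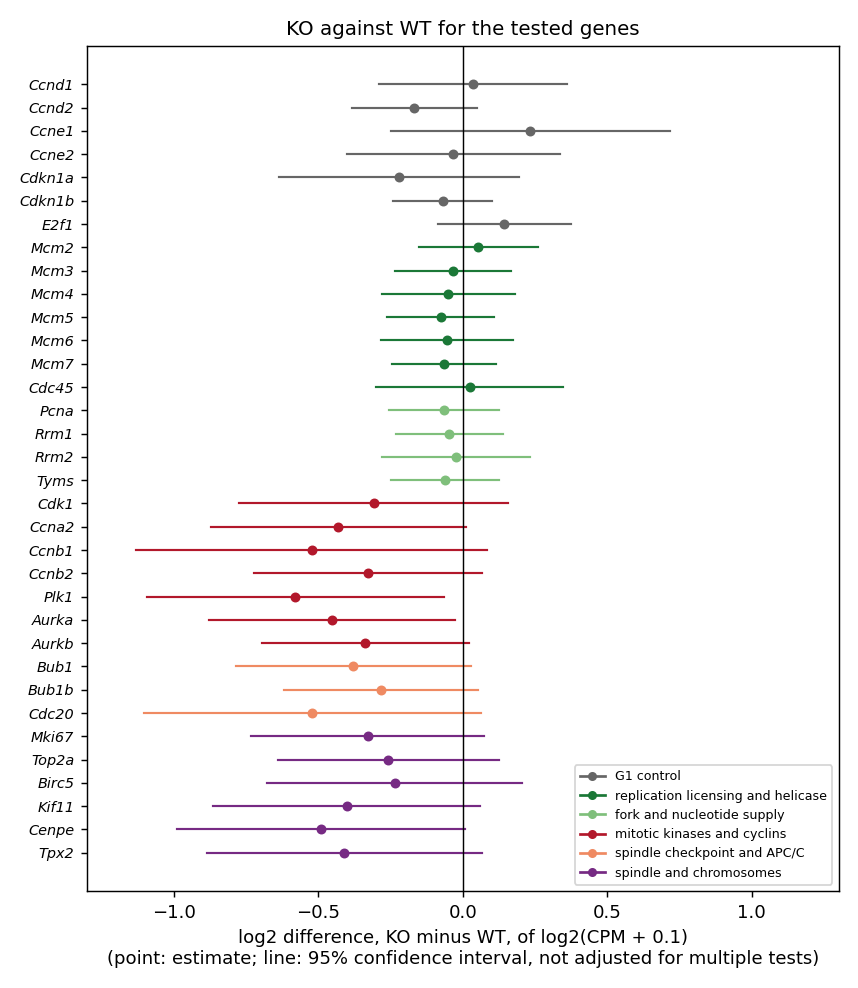
KO against WT for each of the 34 tested genes, as log2 difference of log2(CPM + 0.1) on the x axis with a 95% confidence interval from limma, 6 mice per group, colored by role. The 16 mitotic genes in the lower rows all sit left of 0, from -0.58 to -0.24, and the intervals of Plk1 and Aurka alone leave out 0 before adjustment.

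Among the mitotic kinases and cyclins, Plk1 had the largest difference of all listed genes. It encodes polo-like kinase 1, which acts at centrosomes and in mitotic entry (ENSMUSG00000030867, chromosome 7, 122159439 to 122169873, plus strand, mm10). WT mice held a lowest, median and highest value of 3.87, 6.46 and 8.50 CPM, and KO mice 2.72, 3.80 and 7.31. The groups overlapped: 3 KO mice were below every WT mouse, while KO mouse 3 exceeded 4 of the WT mice. Means were 6.40 ± 1.73 and 4.35 ± 1.73 CPM (SD, n = 6 each), a log2 difference of -0.58 with SE 0.24 and a limma adjusted p of 0.352. For the same difference an exact two-sided permutation test, without adjustment, gave p = 0.0584.

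Aurka, the centrosomal kinase Aurora A (chromosome 2, 172356190 to 172370535), ranged from 3.50 through a median of 5.53 to 7.07 CPM in WT and from 2.90 through 3.68 to 5.02 in KO. Only KO mice 2 and 4 were below every WT mouse. The means were 5.42 ± 1.54 and 3.89 ± 0.936 CPM (log2 difference -0.45, SE 0.20, limma adjusted p = 0.401). Ccna2 encodes cyclin A2 of S phase and G2. It held 8.03, 11.2 and 14.1 CPM in WT against 6.20, 6.92 and 12.1 in KO (lowest, median, highest), with 4 KO mice under every WT mouse and KO mice 1 and 3 above the WT median. Its log2 difference was -0.43 (SE 0.21, limma adjusted p = 0.461).

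The remaining 4 genes of this role behaved alike, and Cdk1, Ccnb1 and Ccnb2 are given because they form the mitotic kinase complex and were named after their values were seen. Ccnb1, cyclin B1, held 7.08 ± 2.41 CPM in WT against 5.07 ± 2.32 in KO. Ccnb2, cyclin B2, ranged over 4.98 to 7.77 CPM in WT (median 6.05) and 3.56 to 7.18 in KO (median 4.26). Cdk1, their kinase partner, was at 6.03 ± 1.58 and 4.93 ± 1.64 CPM. Log2 differences were -0.52, -0.33 and -0.31, with limma adjusted p of 0.546, 0.568 and 0.694. Ccnb1 spread most of all listed genes, with 3.80-fold between KO mouse 2 (2.81 CPM) and WT mouse 2 (10.7 CPM). Its transcripts share 99.2% identity with the pseudogene Ccnb1-ps, which held 2.63 ± 1.00 CPM in WT against 1.70 ± 0.661 in KO, and 98.1% with Gm12856. No source used here states how reads were divided among these copies, so the level of Ccnb1 is uncertain. Aurkb, Aurora B of the chromosomal passenger complex, had KO mean 79.3% of WT.

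In the checkpoint group, Cdc20, which activates the anaphase-promoting complex, was at 7.92, 15.0 and 20.7 CPM in WT (lowest, median, highest) and at 5.98, 8.85 and 17.9 in KO (chromosome 4, 118432901 to 118437352). KO mice 1 and 3 lay at 14.8 and 17.9 CPM, near or above the WT median, and the other 4 KO mice at 5.98 to 9.23. The log2 difference was -0.52 (SE 0.27, limma adjusted p = 0.524). Bub1, a kinetochore checkpoint kinase, had means of 2.23 ± 0.616 in WT and 1.67 ± 0.368 CPM in KO (log2 difference -0.38, SE 0.19, limma adjusted p = 0.496). It ranged over 1.62 to 2.93 CPM in WT (median 2.15) and 1.26 to 2.16 in KO (median 1.55), and 4 KO mice were below every WT mouse. Bub1b, BUBR1 of the mitotic checkpoint complex, ranged from 4.18 to 6.93 CPM in WT (median 5.78) and from 3.74 to 5.56 in KO (median 4.44). For Bub1b 2 KO mice lay below every WT mouse, and the log2 difference was -0.28 (SE 0.16, limma adjusted p = 0.557).

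Motors and spindle proteins gave the same picture. Cenpe, the kinetochore kinesin CENP-E, was at 6.03, 9.31 and 12.6 CPM in WT (lowest, median, highest) and at 4.37, 6.00 and 9.79 in KO. With 3 KO mice below every WT mouse, its log2 difference was -0.49 (SE 0.23, limma adjusted p = 0.454). Kif11, the kinesin that separates spindle poles, held 5.32, 8.33 and 10.2 CPM in WT against 4.08, 5.46 and 8.51 in KO (log2 difference of -0.40, SE 0.22, limma adjusted p = 0.538). Tpx2, the spindle assembly factor that activates Aurora A, held 5.38, 7.52 and 10.2 CPM in WT against 3.82, 5.58 and 8.22 in KO (log2 difference of -0.41, SE 0.22, limma adjusted p = 0.544). KO mice 1 and 3 were the highest of the KO group for all 3 of these genes.

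Mki67 and Top2a, the most used proliferation markers, were likewise named after their values were seen. Mki67 (chromosome 7, 135689784 to 135716361) held 73.7, 70.3, 48.5, 82.7, 48.9 and 48.1 CPM in WT mice 1 to 6. In KO mice 1 to 6 it held 67.5, 37.0, 66.1, 36.1, 46.5 and 44.6 CPM. WT mice 1, 2 and 4 and KO mice 1 and 3 were at 66.1 CPM or more, and the other 7 at 48.9 or less. Means were 62.0 ± 15.4 and 49.6 ± 13.9 CPM (log2 difference -0.33, SE 0.19, limma adjusted p = 0.579). Top2a, topoisomerase II alpha, held 17.8 ± 4.55 CPM in WT against 14.8 ± 3.61 in KO (log2 difference -0.26, SE 0.18, limma adjusted p = 0.688). Birc5, survivin of the passenger complex, had the smallest mitotic difference, with a KO mean 86.6% of WT.

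**Figure D2:**
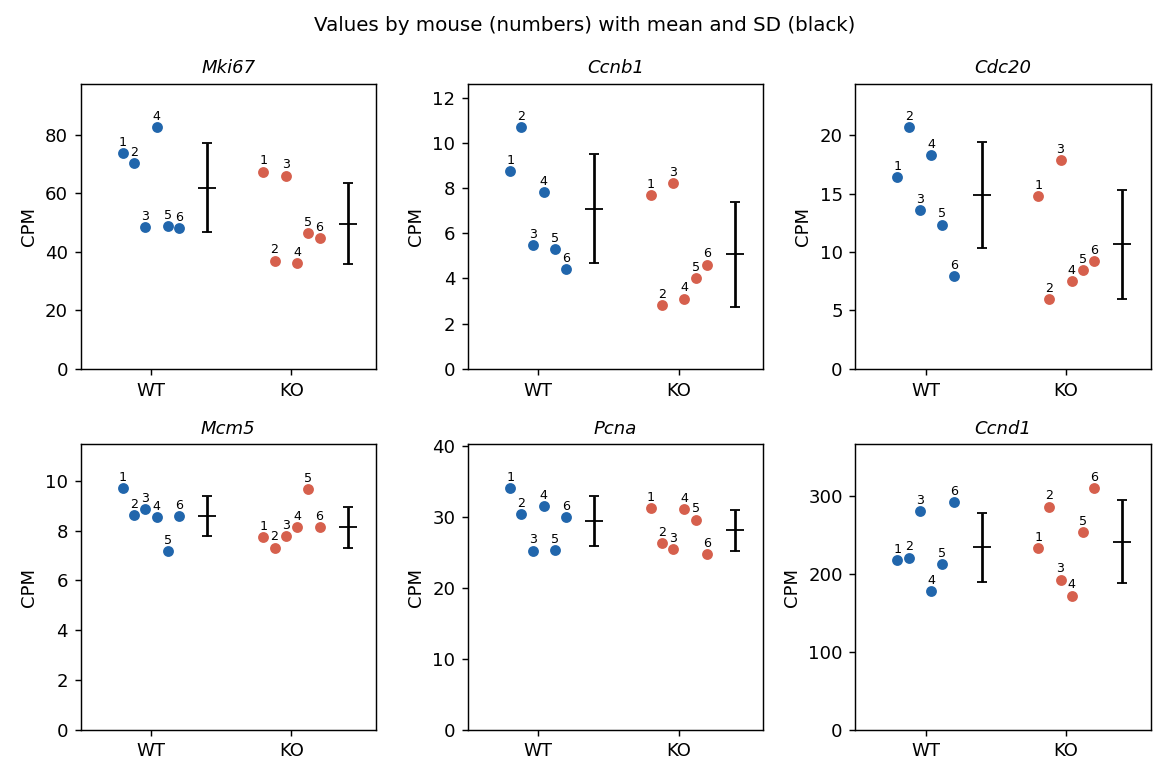
CPM of 3 mitotic genes (top) and of Mcm5, Pcna and Ccnd1 (bottom) in each liver, 1 point per mouse with its number, and mean with SD (n = 6) in black; each y axis starts at 0. WT mice 1, 2 and 4 and KO mice 1 and 3 are the 5 highest for Mki67 and Ccnb1. For Pcna, KO mouse 4 takes the place of KO mouse 3 among the 5 highest, and for Ccnd1 the 5 highest are other mice.

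The replication genes were close in both groups. In the helicase group Mcm5 was at 7.18, 8.60 and 9.72 CPM in WT (lowest, median, highest) and 7.32, 7.96 and 9.68 in KO, with 0 KO mice outside the WT range and a log2 difference of -0.08 (SE 0.09, limma adjusted p = 0.843). Mcm7 held 12.6, 14.6 and 16.7 CPM in WT against 12.8, 13.9 and 15.9 in KO, with every KO mouse inside the WT range (log2 difference -0.06, SE 0.08, limma adjusted p = 0.869). Mcm2 held 8.32, 10.0 and 10.8 CPM in WT against 8.82, 10.2 and 12.9 in KO (log2 difference of 0.05, SE 0.10, limma adjusted p = 0.915), and its sign turned without KO mouse 5 (-0.01). These 3 encode subunits of the ring-shaped MCM helicase. Confidence intervals (95%) ran from -0.26 to 0.11 for Mcm5, -0.24 to 0.11 for Mcm7 and -0.15 to 0.26 for Mcm2, so a change of the size seen in Plk1 lay outside each. Mcm3, Mcm4, Mcm6 and Cdc45, a helicase cofactor, had KO means at 96.0% to 102% of WT. Cdc6 held 0.898 ± 0.161 CPM in WT against 0.983 ± 0.260 in KO (n = 6 each, exact two-sided permutation p = 0.556).

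The fork and nucleotide genes differed as little. Pcna was at 25.2, 30.1 and 34.0 CPM in WT (lowest, median, highest) and at 24.8, 27.9 and 31.2 in KO, with 1 KO mouse below every WT mouse (log2 difference -0.06, SE 0.09, limma adjusted p = 0.882). Tyms, thymidylate synthase, held 5.60, 6.66 and 6.86 CPM in WT against 5.53, 6.28 and 7.08 in KO (log2 difference of -0.06, SE 0.09, limma adjusted p = 0.887), and quantile normalization turned its sign. Rrm1, the large subunit of ribonucleotide reductase, held 13.4, 14.9 and 18.5 CPM in WT against 13.4, 14.6 and 16.4 in KO (log2 difference of -0.05, SE 0.09, limma adjusted p = 0.917), with a change of sign without WT mouse 1. Rrm2, the small and cycle-regulated subunit, had a KO mean 98.4% of WT. Pcna shares 99.2% identity with Pcna-ps2 (6.67 ± 0.924 CPM in WT, 6.07 ± 0.776 in KO) and Mcm7 97.7% with Gm5487, which makes their levels uncertain. Mcm7 and Tyms lie on chromosome 5, as Hsd17b13 does.

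Regulators of G1 pointed in both directions. Ccnd2, cyclin D2, ranged over 37.2 to 54.6 CPM in WT (median 38.0) and 31.9 to 42.6 in KO (median 36.6), with 4 KO mice below every WT mouse. WT mouse 1 held the 54.6, ahead of 42.5 in WT mouse 4, and the log2 difference was -0.17 (SE 0.10, limma adjusted p = 0.609). E2f1, the activator of replication genes, ranged over 3.93 to 5.86 CPM in WT (median 4.63) and 4.65 to 6.05 in KO (median 5.09), with a log2 difference of 0.14 (SE 0.11, limma adjusted p = 0.719). Cdkn1a ranged over 27.7 to 57.9 CPM in WT (median 38.5) and 26.1 to 48.7 in KO (median 34.8), with a log2 difference of -0.22 (SE 0.19, limma adjusted p = 0.773). Ccnd1, named after its values were seen as the most abundant cycle gene, held 234 ± 43.9 CPM in WT against 242 ± 53.4 in KO (log2 difference 0.03, SE 0.15, limma adjusted p = 0.969). Its sign turned without WT mouse 4 (-0.04), KO mouse 2 (-0.02) or KO mouse 6 (-0.04). Its exons overlap those of LTO1 on the opposite strand, and no source used here states whether counting used the strand. The same holds for overlaps at 8 further genes, Ccnd2, Ccne2, Cdkn1a, Mcm7, Cdc45, Ccna2, Plk1 and Cdc20. Ccne1, Ccne2 and Cdkn1b had KO means at 118%, 97.7% and 95.4% of WT.

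Mouse by mouse, the mitotic genes moved together. WT mice 1, 2 and 4 and KO mice 1 and 3 each held a value above the 12-mouse mean for 16 of 16 mitotic genes, and in each 15 or 16 of the 16 were among the highest 5 of 12 values. WT mouse 6 and KO mice 2, 4, 5 and 6 held 0 of 16 above the mean, and WT mice 3 and 5 held 4 and 6. KO mice 2 and 4 had the lowest value for 8 genes each. The mean deviation of the 16 genes from the 12-mouse mean, in log2, was 0.45, 0.58, -0.08, 0.53, -0.04 and -0.27 in WT mice 1 to 6. In KO mice 1 to 6 it was 0.29, -0.62, 0.33, -0.57, -0.29 and -0.31. The range in WT (-0.27 to 0.58) overlapped that in KO (-0.62 to 0.33). Replication genes did not follow: their mean deviation was highest in KO mouse 5 (0.21) and lowest in WT mouse 5 (-0.20).

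**Figure D3:**
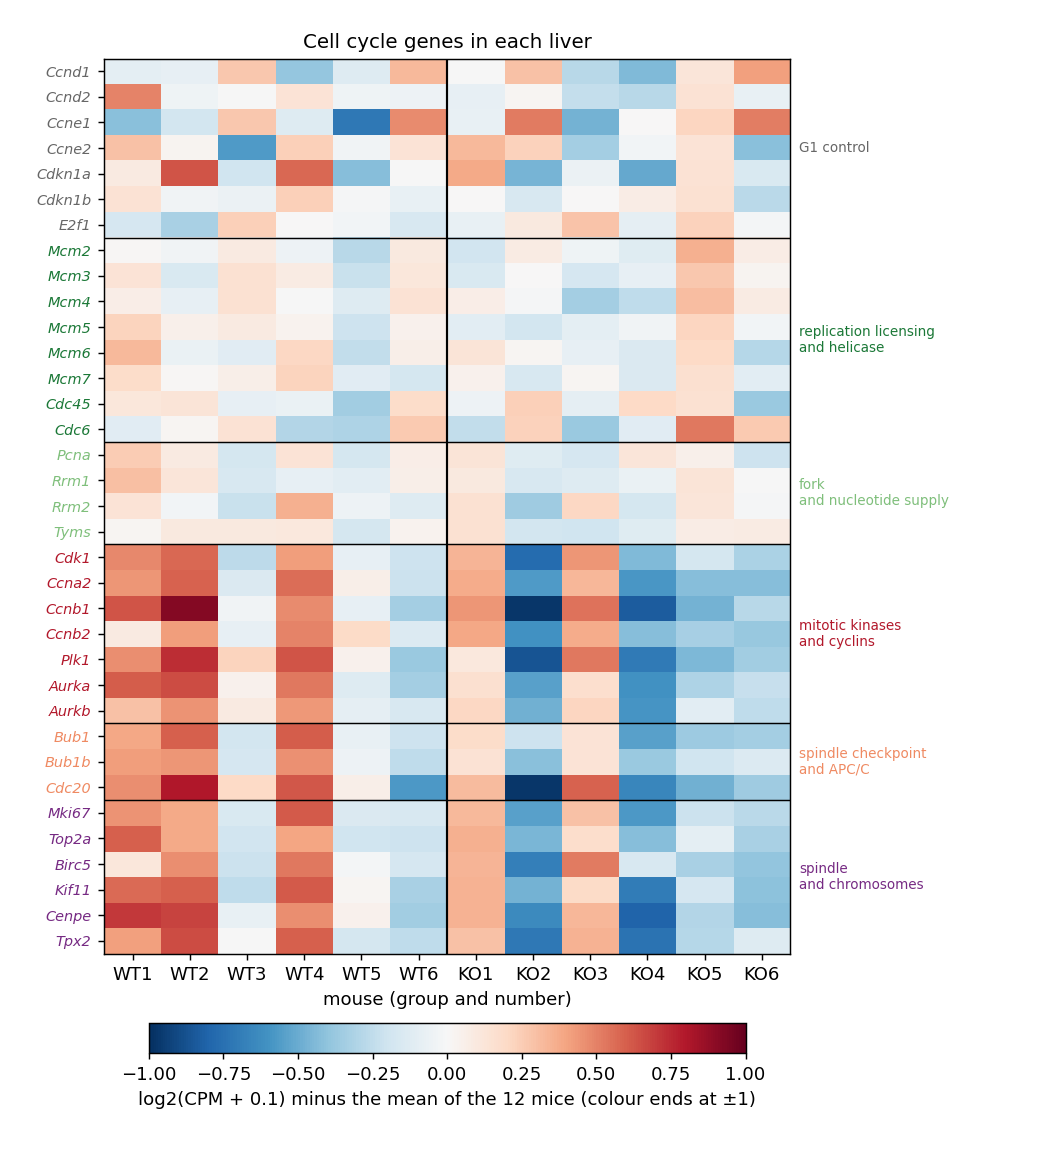
Each row is 1 of the 35 genes grouped by role, each column a mouse, and color gives log2(CPM + 0.1) minus the mean of the 12 mice (red above, blue below). The 16 mitotic rows are red together in WT mice 1, 2 and 4 and KO mice 1 and 3 and blue together in KO mice 2, 4, 5 and 6, while the upper rows show other patterns.

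With group means removed, pairs of mitotic genes correlated across the 12 mice with a median Pearson's r of 0.92 (120 pairs, 0.78 to 0.99), and 95.8% of the pairs were over 0.8. Pairs of replication genes had a median of 0.39 (66 pairs) and pairs of G1 genes 0.03 (21 pairs). A mitotic gene paired with a replication gene gave a median of 0.16, and all pairs among the 15648 tested genes 0.13, of which 1.82% exceeded 0.8. These values are descriptions, since all pairs share the same 12 libraries and their scaling. Outside the mitotic genes, Rrm2, Cdkn1a and Mcm7 had the highest mean r with the 16 mitotic genes, at 0.77, 0.75 and 0.64. Ccne1, Cdc6 and Ccnd1 had the lowest, at -0.55, -0.55 and -0.45. The spread between mice exceeded counting error for the mitotic genes, with a median coefficient of variation of 26.6% in WT and 32.3% in KO against 5.64% from counting alone. Replication genes spread by 11.4% and 12.1%, against 4.29% from counting.

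**Figure D4:**
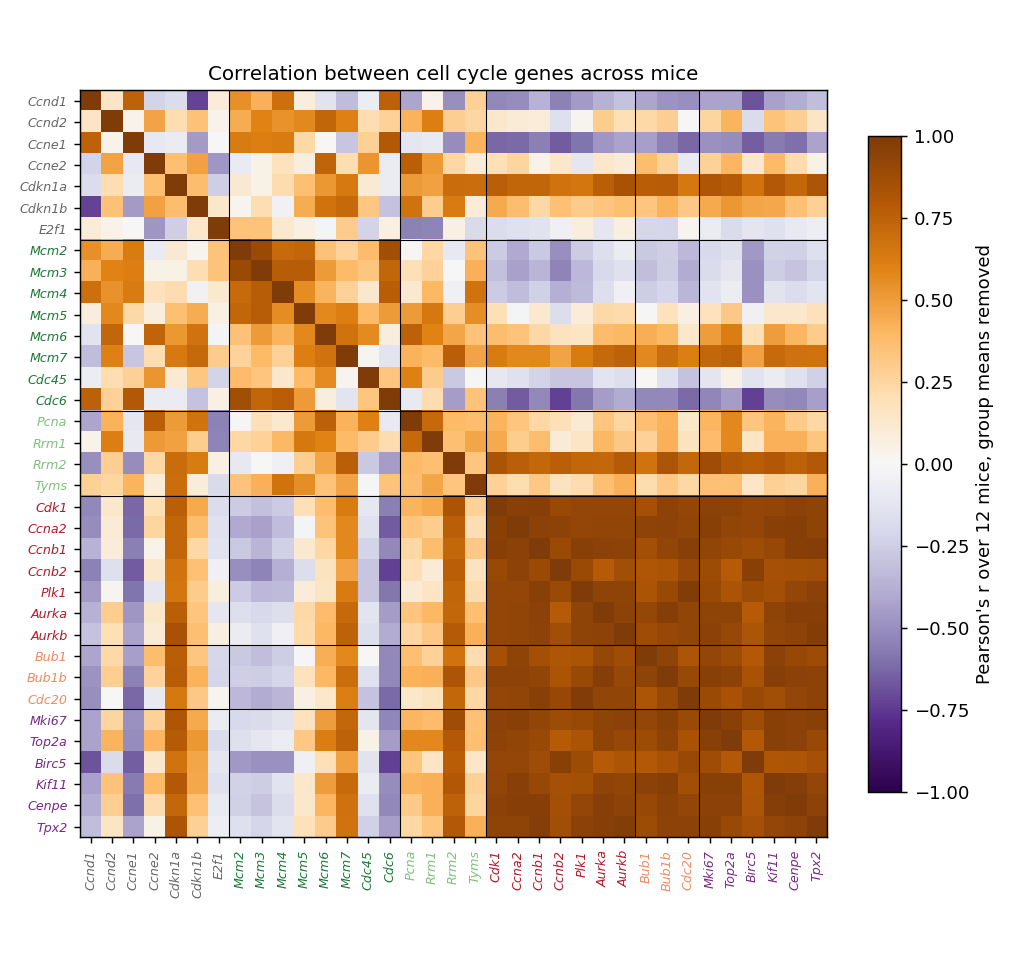
Pearson's r between each pair of the 35 genes over 12 mice after removal of group means (brown positive, purple negative), with genes ordered by role on both axes. The brown square at the lower right holds the 16 mitotic genes, with r from 0.78 to 0.99, and Cdkn1a, Mcm7 and Rrm2 stand out as brown strips beside it.

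KO mice 1 and 3, which stood apart at Pebp1 and Gm8730, were also the 2 KO livers with high mitotic transcripts, and the comparison differed without them. In a limma fit without both, 254 of 15648 genes passed the adjusted threshold (1.62%), and 0 cycle genes did. All 16 mitotic genes and no other cycle gene had an unadjusted p under 0.05, each lower in KO, against 7.56% of all genes. The 2 mice left out held the highest KO values of these genes, so the KO means and spreads had to fall. The 16 genes also varied together (median r of 0.92), so their p-values are not separate results. The count is therefore no evidence of a difference by genotype. The lowest limma adjusted p was then 0.0507 (Ccnb2, log2 difference -0.60), and the mitotic median was -0.62. The median over G1 and replication genes stayed at -0.05. Other single mice moved the count of cycle genes with such a p as well. Of 34, it was 12 without KO mouse 1, 12 without KO mouse 3, 11 without WT mouse 6, 6 without WT mouse 3 and 1 without KO mouse 6. It was 3 without WT mouse 5 and 0 without any 1 of WT mice 1, 2 and 4 or KO mice 2, 4 and 5. Over all genes the share with such a p ran from 8.33% to 14.9% in these 12 fits. All 16 mitotic differences were negative in each of them.

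Further genes of the same processes were counted in 4 lists, with means ± SD given for WT and then KO. In a list of 60 other mitosis genes, 58 were tested, 55 had negative differences, the median was -0.29, and 6 had an unadjusted p under 0.05 (Incenp, Cenpa, Anln, Tacc3, Kif14 and Espl1), all lower in KO (10.3%, against 7.63% of all genes). Tacc3, a spindle microtubule protein, was at 6.20 ± 1.27 and 4.45 ± 1.02 CPM (log2 difference -0.48, SE 0.16, limma adjusted p = 0.231). Incenp, the scaffold of the passenger complex, was at 8.19 ± 1.43 and 6.47 ± 0.605 CPM (log2 difference -0.32, SE 0.12, limma adjusted p = 0.266). Kif14, a kinesin of cytokinesis, was at 2.69 ± 0.716 and 1.95 ± 0.491 CPM (log2 difference -0.44, SE 0.20, limma adjusted p = 0.407). In a list of 46 other replication genes, 41 were tested, 25 were negative and the median was -0.02. Pole, the catalytic subunit of DNA polymerase epsilon, alone had an unadjusted p under 0.05 there (5.66 ± 0.808 to 4.69 ± 0.559 CPM, limma adjusted p = 0.355). The replication initiation factor Mcm10 was at 30.5 ± 10.4 and 39.2 ± 9.70 CPM (limma adjusted p = 0.560), and Gins2 of the helicase complex at 8.65 ± 1.23 and 7.27 ± 1.70 (limma adjusted p = 0.567).

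Of 27 other G1 and quiescence genes, 24 were tested, 15 were negative, the median was -0.02 and 0 had an unadjusted p under 0.05. The smallest p among them belonged to the repressor E2f6 (16.5 ± 0.961 to 18.0 ± 1.11 CPM, limma adjusted p = 0.466), the cyclin D kinase Cdk4 (43.4 ± 2.48 to 40.5 ± 1.01, limma adjusted p = 0.505) and E2f5 (4.99 ± 0.560 to 4.44 ± 0.466, limma adjusted p = 0.617). Of 21 p53 targets beside Cdkn1a, 13 were negative, the median was -0.01 and Tnfrsf10b, a death receptor, had the only unadjusted p under 0.05 (4.46 ± 0.995 to 3.33 ± 0.477 CPM, limma adjusted p = 0.290). The apoptosis genes Bbc3 (10.8 ± 2.95 to 8.08 ± 2.05, limma adjusted p = 0.492) and Pmaip1 (3.44 ± 0.759 to 4.07 ± 0.345, limma adjusted p = 0.524) pointed in opposite directions. Over these 4 lists 0 genes passed the adjusted threshold.

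The summed marker levels of several cell types other than hepatocytes differed in range between the groups, and those of others overlapped widely. The sums were not tested, and 0 markers passed the adjusted threshold in limma. The summed level of 9 recruited macrophage markers, all measured, was 1561 to 2925 CPM in WT and 1028 to 1530 in KO, without overlap. Of these, 7 of the 9 had an unadjusted p under 0.05, lower in KO (7.63% of all genes). Among the 7 was Spp1 (osteopontin), a chromosomal neighbour of Hsd17b13, at a mean of 384 CPM in WT and 182 in KO. Its part in the gap between the sums was not tested, and all 9 markers had negative differences. Beside the sums below stands the number of tested markers with such a p, where 3.59% of all genes had one with a higher level in KO. The 8 activated stellate cell markers summed to 841 to 1489 CPM in WT and 651 to 862 in KO (7 of 8, lower). The 6 cholangiocyte markers summed to 43.9 to 101 CPM in WT and 21.5 to 40.6 in KO (5 of 5 tested, lower), without overlap. The 7 Kupffer cell markers went the other way, 201 to 347 CPM in WT and 329 to 504 in KO (5 of 6 tested, higher). The 9 T and NK cell markers summed to 7.92 to 17.9 and 12.9 to 17.7 CPM (2 of 5 tested, higher). WT mouse 1 held the 17.9, and the other WT mice lay at 7.92 to 10.0 CPM, below every KO mouse. Endothelial markers summed to 251 to 323 and 257 to 365 CPM (1 of 6, higher), B and plasma cell markers to 8.94 to 17.6 and 7.27 to 13.0 (1 of 5 tested, lower). Neutrophil markers summed to 10.4 to 35.2 and 14.2 to 41.1 CPM (5 of 6 in the table, 0 of 3 tested). Hepatocyte markers summed to 54628 to 73562 CPM in WT and 54750 to 68703 in KO (0 of 8). Of 6 erythroid markers only Alas2 was in the table, at a mean of 50.6 CPM in WT and 53.2 in KO. No marker in the table was at 0 in all libraries. Which cells carried the mitotic transcripts, and the part of these cell types in their difference, was not tested.

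Genes of the circadian clock, examined after their values were seen, also varied with the mitotic genes. Dbp, a transcription factor that follows the hour of day in liver, was at 5.61, 7.09, 53.8, 26.1, 27.6 and 72.3 CPM in WT mice 1 to 6. In KO mice 1 to 6 it was at 33.8, 103, 59.6, 69.3, 48.2 and 68.6 CPM, an 18.4-fold range over the 12 livers. Dbp was lowest in WT mice 1, 2 and 4, where mitotic genes were high, and highest in KO mouse 2, where they were low. Elsewhere the order was loose. WT mice 4 and 5 had nearly the same Dbp (26.1 and 27.6 CPM), but mean deviations of the mitotic genes of 0.53 and -0.04. KO mouse 1 had more Dbp (33.8 CPM) than WT mouse 5, yet a mitotic mean deviation of 0.29. KO mouse 3 also departed from the order at Dbp, with 59.6 CPM of Dbp and high mitotic genes. At the further clock genes Tef, Per2 and Per3, KO mice 1 and 3 were instead the lowest of the KO group. Tef was at 73.4 and 73.9 CPM there, Per2 at 12.2 and 12.6, and Per3 at 13.1 and 11.8. The other KO mice held at least 87.6, 20.3 and 16.3 CPM. WT mouse 5 was also low at these genes (66.8, 9.27 and 8.43 CPM), without high mitotic genes. The clock gene Arntl went the other way from Dbp, at 8.24 to 24.8 CPM in WT and 5.16 to 14.0 in KO. In KO mouse 3 Arntl was at 7.63 CPM, below KO mice 1, 4, 5 and 6. With log2 Dbp as a covariate, 0 of 34 cycle genes had an unadjusted p under 0.05. The share of all 15648 genes with such a p also fell, from 11.2% to 4.98%. In that fit 12 genes passed the adjusted threshold over the whole table, and the median over the 16 mitotic genes was -0.05. The sign turned for 14 of 34 cycle genes, 5 of them mitotic. Dbp itself had the higher mean in KO without passing the test (log2 difference of 1.45, SE 0.55, limma adjusted p = 0.292), so the covariate and the genotype share variation, and their parts cannot be told apart.

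**Figure D5:**
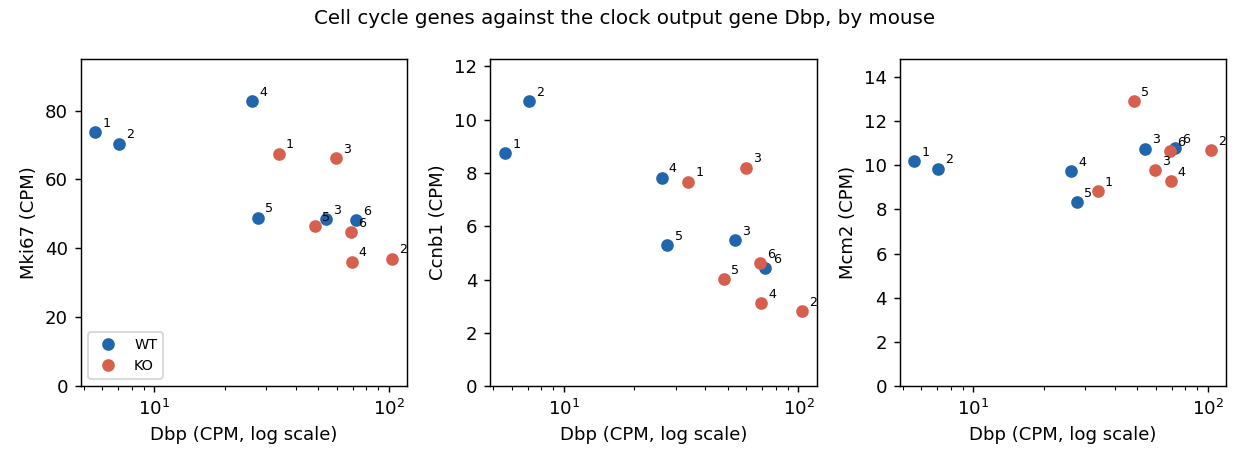
CPM of Mki67, Ccnb1 and Mcm2 (y axes from 0) against Dbp (x axis, log scale) in each mouse, with WT in blue and KO in red and the mouse number beside each point. Mki67 and Ccnb1 are high in the WT livers with the lowest Dbp (WT mice 1 and 2) and low in KO mouse 2 with the highest, whereas Mcm2 stays between 8.32 and 12.9 CPM.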

How the data were processed

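Liver RNA of 6 WT and 6 Hsd17b13 KO mice was measured, 1 library per mouse. Per the labels' protocols, libraries were made from total RNA by depletion of globin and ribosomal RNA with a kit that keeps the strand, although the molecule label says polyA RNA. The submitters' processing notes name mm10, Partek 10.0, STAR 2.7.3a and DESeq2 1.14.1 without roles. Neither the labels nor the file state how reads were counted, with which gene models, or whether by strand.

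The authors deposited CPM values: each of the 12 columns sums to 1000000 over 20143 genes. Of the low values (0.05 to 2 CPM), 69.7% to 72.5% per library lay within 0.02 steps of whole multiples of 1 step, where even spacing gives 4%. The rest were fractional, so no count test was run, and the step served only for depth. Counting errors cover counting only, since reads are not independent molecules.

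From these, log2(CPM + 0.1) was computed for genes averaging 1 CPM or more and fitted with limma 3.58.1 (R 4.3.3; mean trend, two-sided, Benjamini-Hochberg over 15648 genes, threshold 0.05). The design assumed normalized values, and the test was kept. Symbols, positions and exon lengths came from GENCODE for mm10 (20055 of 20143 IDs matched), and copies from BLASTN 2.17.0 (at least 95% identity over 500 bases). Exact permutation tests over 924 assignments were computed in R 4.3.3. The fit was tested on simulated data.

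The cycle genes, gene lists and alternatives were chosen with earlier results of these data known. Named genes are the 3 with the smallest unadjusted p in each role and in each of the 4 further lists, plus Mki67, Top2a, Cdk1, Ccnb1, Ccnb2 and Ccnd1. Other marker and pathway genes are given as counts. Alternatives were other pseudocounts, filters, scalings and weights, no mean trend, a replicate block, a Dbp covariate (chosen after seeing the data) and left-out mice.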

Additional observations from a re-analysis of the deposited data

Results flagged for a closer look

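Among 70 groups of 6 values (35 genes in WT and in KO), 3 held a mouse farther from the rest than Dixon's test allows for 6 values. Chance flags about 5% of such groups, so 3 is no more than chance gives. Ccnd2 was at 54.612 CPM in WT mouse 1, the highest of its group, with the next WT mouse at 42.457. Mcm5 was at 9.684 CPM in KO mouse 5, with the next KO mouse at 8.157. Tyms was at 5.605 CPM in WT mouse 5, the lowest of its group, with the next at 6.438. The same 2 mice stood at the ends of the replication genes as a set: KO mouse 5 was above the 12-mouse mean for 12 of 12 and WT mouse 5 for 0 of 12. Whether these values come from the animals or the libraries was not tested.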

How the results depend on the processing

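Over the 23 alternatives, 0 cycle genes and 0 genes of the 4 further lists passed the adjusted threshold in limma, and the median over the cycle genes ranged from -0.24 to -0.12 with 1 mouse left out. With only genes averaging 10 CPM or more it was -0.06, and with the Dbp covariate -0.01. The number of genes called over the whole table was 28 as reported and moved widely. It was 44 with no filter, 15 with a mean of at least 10 CPM, 71 with median-of-ratios scaling, 79 with quantile normalization, 331 with library weights, 254 without KO mice 1 and 3, 12 with log2 Dbp as a covariate, and 15 to 53 with 1 mouse left out. Cycle genes with an unadjusted p under 0.05 numbered 2 of 34 as reported, 12 with library weights and 0 with quantile normalization. The shares of all genes with such a p were 11.2%, 16% and 12%. The 12 were all mitotic genes lower in KO, where 10.5% of all genes had such a p. Mitotic genes varied together, so these are not separate results. At a mean of at least 10 CPM 13 cycle genes were tested and 0 had such a p, against 9.8% of all genes at that filter. Scaling moved the median of all genes by less than 0.1.

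With the Dbp covariate the log2 difference turned sign for Ccnd1 (-0.11), Cdkn1a (0.044), Mcm7 (0.032), Pcna (0.051), Rrm1 (0.092), Cdk1 (0.090), Bub1b (0.012), Top2a (0.10) and Kif11 (0.011). Quantile normalization turned Tyms (0.012). With 1 mouse left out, Ccnd1 ranged from -0.044 to 0.13, Mcm2 from -0.012 to 0.096 and Rrm1 from -0.083 to 0.0098. The cause was not tested.

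Mice of the same number did not pair: correlations of their deviations from the group means were 0.40, 0.11, -0.10, 0.15, -0.53 and 0.42, and only numbers 1 and 6 matched best with their own. With the replicate block limma called 44 genes and 0 cycle genes, with a lowest adjusted p of 0.409 among them (Plk1).

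Depth limits the lowest genes: counting error alone was 13.5% for Cdc6 and 1.79% for Mki67, per library.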

Other observations

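Other clock genes and Wee1 are given as values chosen after seeing the data, and their relation to Dbp was not tested. Tef was at 36.6 to 103 CPM in WT and 73.4 to 136 in KO (log2 difference 0.62, limma adjusted p = 0.318). Per3, a period gene, was at 5.54 to 22.1 and 11.8 to 31.3 CPM (0.88, limma adjusted p = 0.310). Per2 was at 6.82 to 31.8 and 12.2 to 38.7 CPM (0.69, limma adjusted p = 0.588). Npas2, a partner of ARNTL, was at 2.89 to 8.70 and 2.07 to 4.26 CPM (-0.81, limma adjusted p = 0.173). Wee1, the kinase that inhibits CDK1 and is itself a clock target, was at 9.43 to 13.2 CPM in WT and 8.23 to 18.6 in KO (0.10, limma adjusted p = 0.905). The highest Wee1 value was in KO mouse 2, which had the lowest Cdk1 level (3.04 CPM). The lowest Wee1 value was in KO mouse 4, which had the next lowest Cdk1 level (3.84 CPM). A relation between the levels of these 2 transcripts was not tested.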
